A study of Homo sapiens with 4 samples.

Results

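The 4 genes SMAD6, SMAD7, SKI and SKIL encode repressors of SMAD signalling and were examined among 20037 protein-coding genes in CUT&Tag profiles of 22RV1, a human prostate cancer cell line. They were selected on earlier values of these same libraries, the levels of SMAD6 after RB siRNA and of SKIL in both controls, and completed by name with the paralogs SMAD7 and SKI. Their levels, and the counts of them with a summit, are therefore a description, and no test between groups was made. There were 4 libraries with 1 per group. Cells were given the CDK4/6 inhibitor PD0332991 (palbociclib), which stops these kinases from phosphorylating the tumour suppressor RB, and were set against the control of that inhibitor. Other cells were given an siRNA against RB and were set against the control of that siRNA. The series asks how phosphorylated RB bears on the activity of the transcription factor ETS1. The sources used here do not give the antibody target, the inhibitor dose, the treatment times or the siRNA sequence. The lists hold no expression values against which the cell line or the knockdown could be checked.

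SMAD proteins carry signals of transforming growth factor β (TGF-β) and bone morphogenetic proteins (BMPs) from receptors at the cell surface to the genome. SMAD6 and SMAD7 are the inhibitory SMADs. They bind activated receptors, compete with the signal-carrying SMADs and bring in ubiquitin ligases, SMAD6 mainly in BMP signalling and SMAD7 in both branches. SKI and the related SKIL, also called SnoN, are nuclear corepressors that bind SMAD2, SMAD3 and SMAD4 on DNA. Genes of both kinds are known to be induced by the pathway, which makes them feedback inhibitors.

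A level is given in FPM, the fragments at the highest point (summit) of a deposited interval per 1000000 fragments of that library. Fragments were recovered from the authors' fold and p, and ranges in brackets are 95% intervals for counting error only. These ranges do not allow for the summit being the highest point of an interval whose width differs between libraries. Each library held 1909343 (inhibitor), 2458772 (inhibitor control), 2423287 (RB siRNA) and 3479667 fragments (siRNA control). The intervals tile the genome with gaps, and each lists 1 summit. A lower summit inside the same interval is therefore hidden, and an unlisted summit is no evidence of absence. At the 4 genes the authors' −log10 q was 1.07 for SMAD6 in the inhibitor control and 0 at every other summit described. The recovered background read ends numbered 9592 (inhibitor), 34562 (inhibitor control), 7641 (RB siRNA) and 36250 (siRNA control).

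Summits lay upstream of the genes, close to where transcription starts. Within 1000 bp of either end there was a summit at 2 of the 4 genes under the inhibitor (SMAD6 and SKIL) and at 3 in its control (SMAD6, SKI and SKIL). After RB siRNA there were 3 (SMAD6, SMAD7 and SKIL), and in the siRNA control there were 2 (SMAD6 and SKIL). Over all 20037 genes the shares were 7.73% under the inhibitor, 16.8% in its control, 6.63% after RB siRNA and 17.3% in the siRNA control. SMAD6 and SKIL were selected on levels in these libraries, so no enrichment is read from the counts beside these shares. SMAD7 counted after RB siRNA and not elsewhere because of the limit of 1000 bp. Its summit lay 991 bp upstream of the 5′ end after RB siRNA, just inside, and 1034 bp (inhibitor), 1053 bp (inhibitor control) and 1035 bp (siRNA control) upstream, just outside. Widening the limit to 2500 bp gave 3, 4, 3 and 3 genes in the inhibitor, inhibitor control, RB siRNA and siRNA control libraries, against 8.74%, 19.7%, 7.58% and 20.3% of all genes. No other annotated gene had an end within 1000 bp of a summit at SMAD6, SMAD7 or SKIL, or of the SKI summit of the inhibitor control.

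**Figure D1:**
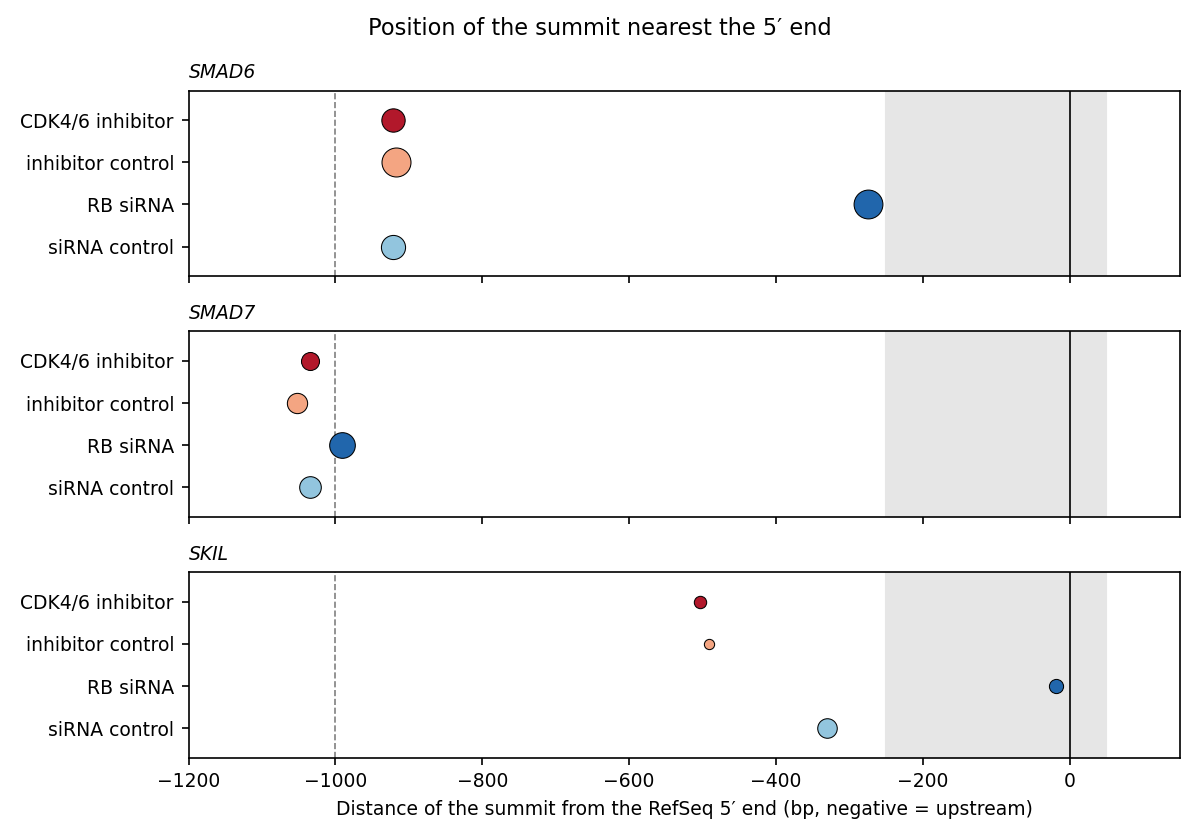
Distance of the summit from the RefSeq 5′ end (x axis, bp, negative upstream) in each library (rows) for SMAD6, SMAD7 and SKIL, with circle area proportional to recovered fragments, the dashed line at the 1000 bp limit and grey for the RefSeq promoter window. SMAD7 summits lie within 62 bp of each other, whereas after RB siRNA the summits of SMAD6 and SKIL lie closer to the 5′ end than in the other libraries.

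SMAD6 lies on chromosome 15 (66702236 to 66782849, GRCh38, plus strand). Its summit was at 66701315 under the inhibitor, 66701319 in its control and 66701314 in the siRNA control, a spread of 5 bp. After RB siRNA it was at 66701961, only 275 bp upstream of the 5′ end and 647 bp from the summit of the siRNA control. The recovered mean fragment lengths were 183, 191, 204 and 174 bp (inhibitor, inhibitor control, RB siRNA, siRNA control), so this distance exceeds a fragment. SKIL lies on chromosome 3 (170357715 to 170396849, plus strand). Its summits were 504 bp (inhibitor), 491 bp (inhibitor control), 18 bp (RB siRNA) and 331 bp (siRNA control) upstream of the 5′ end. Thus at SKIL, too, the summit nearest the 5′ end was that after RB siRNA. SMAD7 lies on chromosome 18 (48919853 to 48950965, minus strand), and its summits in the 4 libraries spanned 62 bp. Whether a summit at the other position was present at SMAD6 or SKIL cannot be read from lists that give 1 summit per interval.

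The promoter windows of SMAD6, SMAD7 and SKIL are shown because the summits lie in or upstream of them and because the genes are feedback targets of the SMADs. Each runs 5′ to 3′ from 250 bases before to 50 after the start (RefSeq, GRCh38.p14). Capitals mark the SMAD-binding core GTCT on either strand (AGAC on the other). The windows are chr15:66701986-66702285 (plus strand), chr18:48950916-48951215 (minus strand) and chr3:170357465-170357764 (plus strand).
SMAD6: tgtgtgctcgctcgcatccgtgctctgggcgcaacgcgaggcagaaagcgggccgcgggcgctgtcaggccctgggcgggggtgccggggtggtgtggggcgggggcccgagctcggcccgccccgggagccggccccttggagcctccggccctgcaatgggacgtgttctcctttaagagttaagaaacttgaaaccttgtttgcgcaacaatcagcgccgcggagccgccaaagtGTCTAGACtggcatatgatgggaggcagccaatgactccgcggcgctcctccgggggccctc
SMAD7: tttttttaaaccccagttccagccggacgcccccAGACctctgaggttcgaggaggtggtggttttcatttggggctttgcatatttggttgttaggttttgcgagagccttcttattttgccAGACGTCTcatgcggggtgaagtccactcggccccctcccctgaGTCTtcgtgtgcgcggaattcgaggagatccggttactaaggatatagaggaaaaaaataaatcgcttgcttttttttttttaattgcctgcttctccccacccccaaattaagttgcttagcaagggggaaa
SKIL: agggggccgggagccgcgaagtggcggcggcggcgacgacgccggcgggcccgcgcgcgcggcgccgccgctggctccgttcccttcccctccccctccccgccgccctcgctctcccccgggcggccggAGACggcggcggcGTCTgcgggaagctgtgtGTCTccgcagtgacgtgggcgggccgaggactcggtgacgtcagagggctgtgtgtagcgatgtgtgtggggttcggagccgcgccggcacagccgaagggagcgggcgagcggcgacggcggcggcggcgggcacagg
The SKIL window holds the RB siRNA summit at its base 233, and the RB siRNA summit of SMAD6 lies 25 bases before the SMAD6 window. The SMAD7 summits lie further upstream, 741 bases before the window after RB siRNA. The core GTCT occurred 2 times in the SMAD6 window, 4 times in that of SMAD7 and 3 times in that of SKIL. It is common, with at least 1 match in 84.0% of 35116 RefSeq promoters and a median of 2 matches. In SMAD6 the matches lie side by side and form the palindrome GTCTAGAC, a sequence that SMAD3 and SMAD4 bind, which begins at base 239 of the window and is held by 0.202% of promoters. The SKIL window holds TGACGTCA, a CREB-binding sequence (1.85% of promoters), beginning at base 197. It also holds GGCGCC, a GC-rich sequence bound by BMP-type SMADs (19.2%). These palindromes read the same on both strands. The ETS core CCGGAA (17.2% of promoters, searched with its reverse complement TTCCGG) was in none of the 3 windows. In the window of a second SMAD7 start, at 48949333, it occurred 2 times. The E2F sequences TTTGGCGC (0.652%) and TTTCCCGC (1.63%), also searched on both strands, were in no window of these genes. GGCGCC and TTTGGCGC can share bases. A match is only these letters in the window and is not a measured site. The GC content was 68.0% in SMAD6, 48.3% in SMAD7 and 79.0% in SKIL, against a median of 58.7% over all promoters, and 96.3% of promoters were lower than SKIL.

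At SMAD6, the inhibitory SMAD of BMP signalling, the summit held 29.9 FPM under the inhibitor (22.6 to 38.7, 57 fragments) and 35.8 in its control (28.7 to 44.1, 88 fragments). It held 35.9 FPM after RB siRNA (28.8 to 44.3, 87 fragments) and 17.5 in the siRNA control (13.4 to 22.5, 61 fragments). By library totals the siRNA control thus stood low, but the order depends on the scaling: scaled to summits of all 4 libraries, the inhibitor library had 22.5 FPM at SMAD6, below the 24.6 FPM of the siRNA control. Ordered by library totals, the interval of the log2 ratio included 0 for RB siRNA over the inhibitor control (0.00, -0.44 to 0.45) and for the inhibitor control over the inhibitor (0.26, -0.24 to 0.77). It excluded 0 for the inhibitor over the siRNA control (0.77, 0.22 to 1.31), where the median of all shared summits was 0.78.

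SMAD7, the inhibitory SMAD of both branches, had 17.8 FPM under the inhibitor (12.3 to 24.9, 34 fragments) and 17.5 in its control (12.7 to 23.6, 43 fragments). It had 28.5 FPM after RB siRNA (22.2 to 36.0, 69 fragments) and 14.1 in the siRNA control (10.4 to 18.6, 49 fragments). Here the RB siRNA library stood high, with an interval above that of the siRNA control and overlapping those of the inhibitor pair. The interval of the log2 ratio excluded 0 for RB siRNA over the next library, the inhibitor (0.68, 0.06 to 1.31). It included 0 for the inhibitor over its control (0.03, -0.67 to 0.71) and for the inhibitor control over the siRNA control (0.31, -0.31 to 0.93). The order of the lower 3 libraries turned when levels were scaled to summits of all 4, to 13.4 FPM (inhibitor), 15.4 (inhibitor control) and 19.7 (siRNA control), with RB siRNA still highest at 29.2.

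The corepressor gene SKIL had the lowest levels of the 3 genes listed in all libraries. It held 8.38 FPM under the inhibitor (4.79 to 13.6, 16 fragments) and 4.47 in its control (2.23 to 8.0, 11 fragments). After RB siRNA it held 8.67 FPM (5.36 to 13.2, 21 fragments), and in the siRNA control 11.5 (8.21 to 15.7, 40 fragments). At SKIL the siRNA control was thus highest and the inhibitor control lowest. For all neighbours in this order the interval of the log2 ratio included 0 (ratios 0.41, 0.05 and 0.91). For the siRNA control over RB siRNA it was -0.39 to 1.24, above the median of -0.45 over shared summits. These SKIL summits were 313 bp apart, and the siRNA control level was used in selecting the gene, so nothing is read from this. SKIL sat in the middle of gene-end summits in 3 libraries, above 49.7% of them under the inhibitor, 43.4% in its control and 54.4% after RB siRNA, and above 85.8% in the siRNA control. SMAD6 was above 87.4%, 94.8%, 91.7% and 92.9% of gene-end summits in the inhibitor, inhibitor control, RB siRNA and siRNA control libraries.

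**Figure D2:**
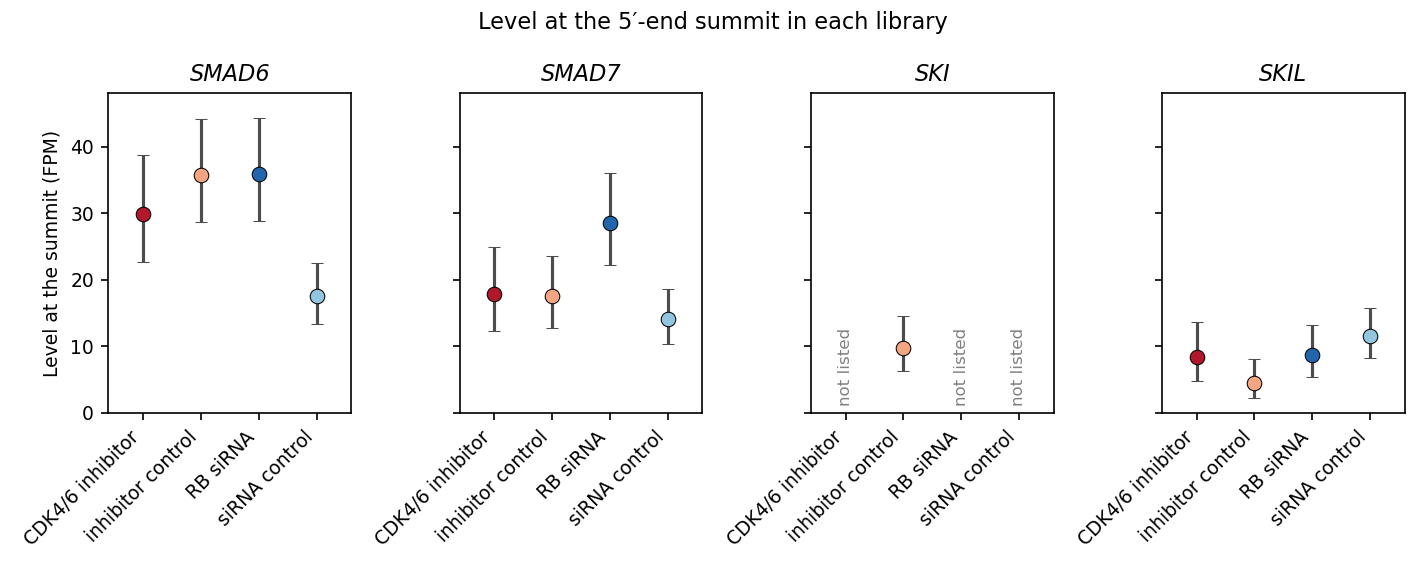
Level at the summit by the 5′ end (y axis, FPM) in each library (x axis) for SMAD6, SMAD7, SKI and SKIL. Points are single libraries and bars are exact Poisson 95% intervals. Scaled to library totals, SMAD6 is lowest in the siRNA control (17.5 FPM), which does not hold when scaled to summits of all 4 libraries, SMAD7 is high after RB siRNA (28.5 FPM), and SKI has a listed summit in the inhibitor control only (9.76 FPM).

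SKI, the founding member of the SKI and SKIL family, lies on chromosome 1 (2228319 to 2310213). A summit at its end was listed in the inhibitor control alone, at 2227817, 502 bp outside the lower coordinate of the gene, with 9.76 FPM (6.25 to 14.5, 24 fragments). It was above 71.2% of the gene-end summits of that library. In the other libraries the interval over this end had its summit far away. Under the inhibitor that summit was 94.8 kb outside the gene with 60.2 FPM, and in the siRNA control 94.9 kb outside with 27.3 FPM, in both cases inside PRKCZ, an atypical protein kinase C gene. After RB siRNA it was 317.8 kb from the same end with 23.1 FPM, nearest to TNFRSF14. A SKI summit of 9.76 FPM would not have been listed in any of these intervals, so its level there is bounded only by those values and no ratio was formed. The interval of the inhibitor control was narrower (85.1 kb) than those of the inhibitor (473.1 kb), RB siRNA (946.1 kb) and the siRNA control (331.2 kb).

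**Figure D3:**
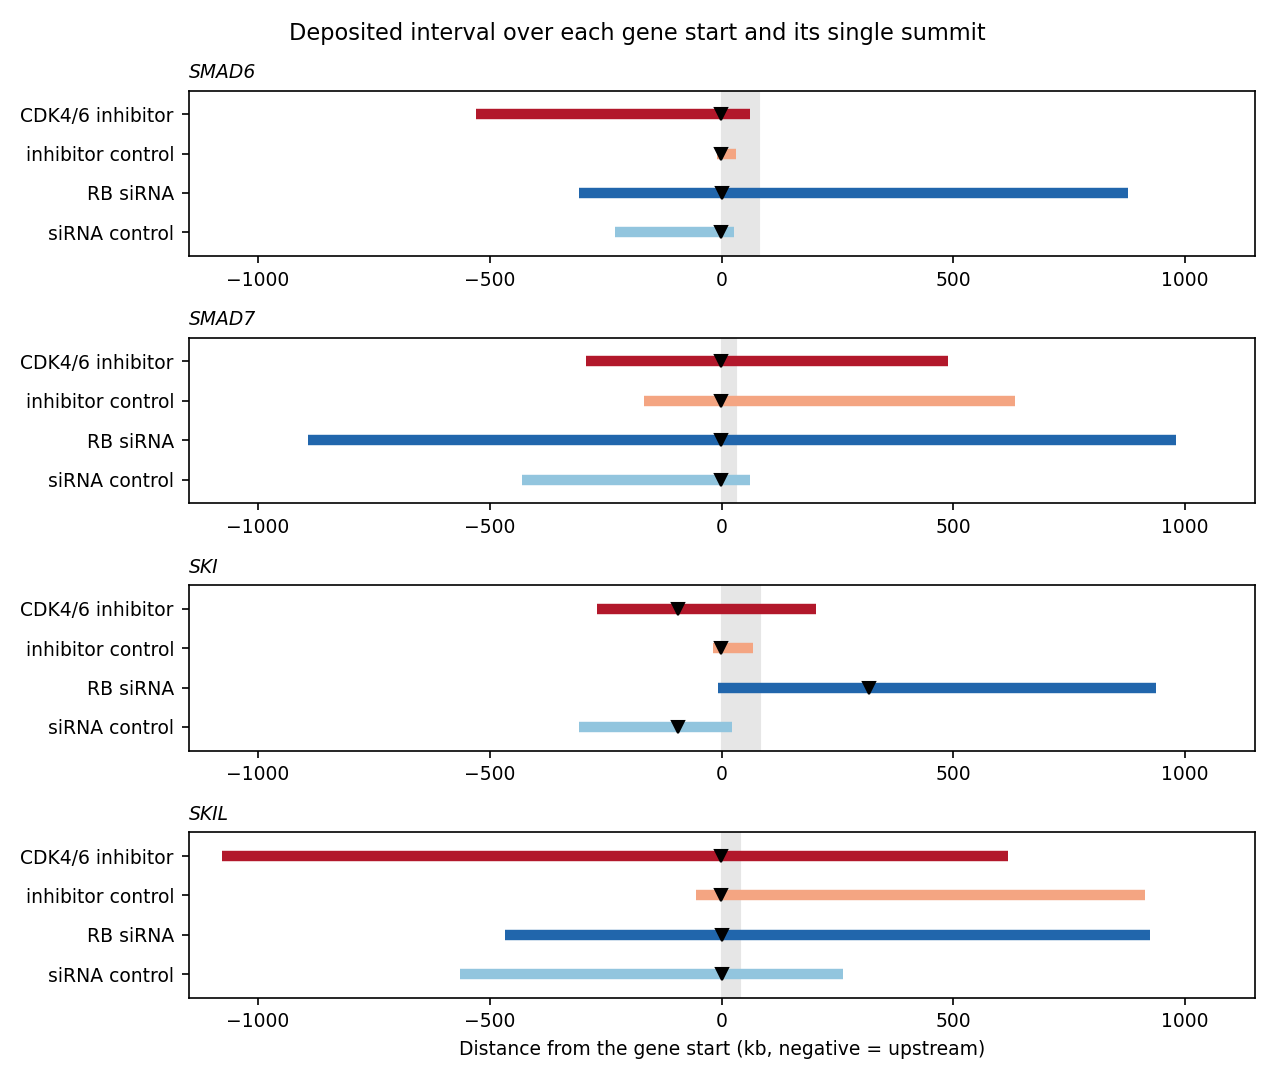
The deposited interval over the start of each gene (bars, one row per library) with its listed summit (triangle), against distance from the start (x axis, kb, the lower coordinate for SKI), with the gene in grey. SMAD6, SMAD7 and SKIL have their summit by the start in all 4 libraries, and at SKI this holds in the inhibitor control only, where the interval is 85.1 kb wide.

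Under the CDK4/6 inhibitor, SMAD6, SMAD7 and SKIL each had a summit matched to one in its control within 250 bp, and none differed from the median of all shared summits beyond counting error. The log2 ratio of inhibitor over control was -0.26 at SMAD6 (-0.77 to 0.24) and 0.03 at SMAD7 (-0.67 to 0.71). At SKIL it was 0.91 (-0.29 to 2.16), on 16 and 11 fragments. The median over 887 shared summits of at least 5 FPM was 0.20. Beyond counting error means that the interval of a ratio excludes this median, which held above it for 9.13% and below it for 7.78% of the 887. The ratio at SMAD6 was higher than at 14.1% of them, at SMAD7 than at 32.9% and at SKIL than at 91.5%. The 3 genes thus lay on both sides of the median, and the width of their intervals leaves room for changes of up to 2.16 on this scale at SKIL.

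After RB siRNA, the summit of SMAD7 was higher than in the siRNA control, and the interval of the ratio lay above the median. The level was 28.5 against 14.1 FPM, a log2 ratio of 1.02 (0.47 to 1.57). The median over 749 shared summits was 0.45, so the lower bound passed it by 0.02. Of these summits, 7.61% lay above the median in this sense and 5.74% below, and 92.8% had a lower ratio than SMAD7. When the median was taken over summits of at least 10 FPM it was 0.49, and SMAD7 no longer lay beyond it. SMAD7 was the only one of the 4 genes with a matched summit here. At SMAD6 the summits lay 647 bp apart. The RB siRNA summit had 35.9 FPM, and at that position the siRNA control had at most 17.5 FPM, the highest point of its interval. The log2 ratio was thus estimated as at least 1.03, with a range of 0.55 to 1.53 for counting error. This level of SMAD6 was used in selecting the gene, and the ratio is a description. At the position of the control summit the RB siRNA library had at most 35.9 FPM, so its level there is known only as lying under that value. At SKIL the summits were 313 bp apart, with 8.67 FPM after RB siRNA and 11.5 in the siRNA control. The ratio of these separate positions was -0.41 (-1.24 to 0.39), against the median of 0.45.

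The 2 control libraries were also compared at these genes. With the inhibitor control on top and the siRNA control below, the log2 ratio was 1.03 at SMAD6 (0.54 to 1.53) and 0.31 at SMAD7 (-0.31 to 0.93). At SKIL it was -1.36 (-2.47 to -0.37), with the matched summits 160 bp apart. The median over 1191 shared summits was 0.59, and SMAD6 and SMAD7 lay within counting error of it. SKIL lay below it, but SKIL was selected on its levels in these controls, so its ratio is a description from which nothing is read. In this comparison the interval lay above the median for 11.9% of the shared summits and below it for 8.4%. Relative to the median of its own comparison, the log2 ratio at SMAD6 was 0.44 between controls, where its summits matched. For RB siRNA over its control it was 0.59, from unmatched summits 647 bp apart. The RB siRNA level of SMAD6 was used in selecting the gene, so nothing is read from setting these values side by side. The RB siRNA library also exceeded the inhibitor control at SMAD7, whose ratio over RB siRNA was -0.70 (-1.29 to -0.13), while at SMAD6 these libraries had nearly equal levels. Treatment and library cannot be told apart with 1 library per group.

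**Figure D4:**
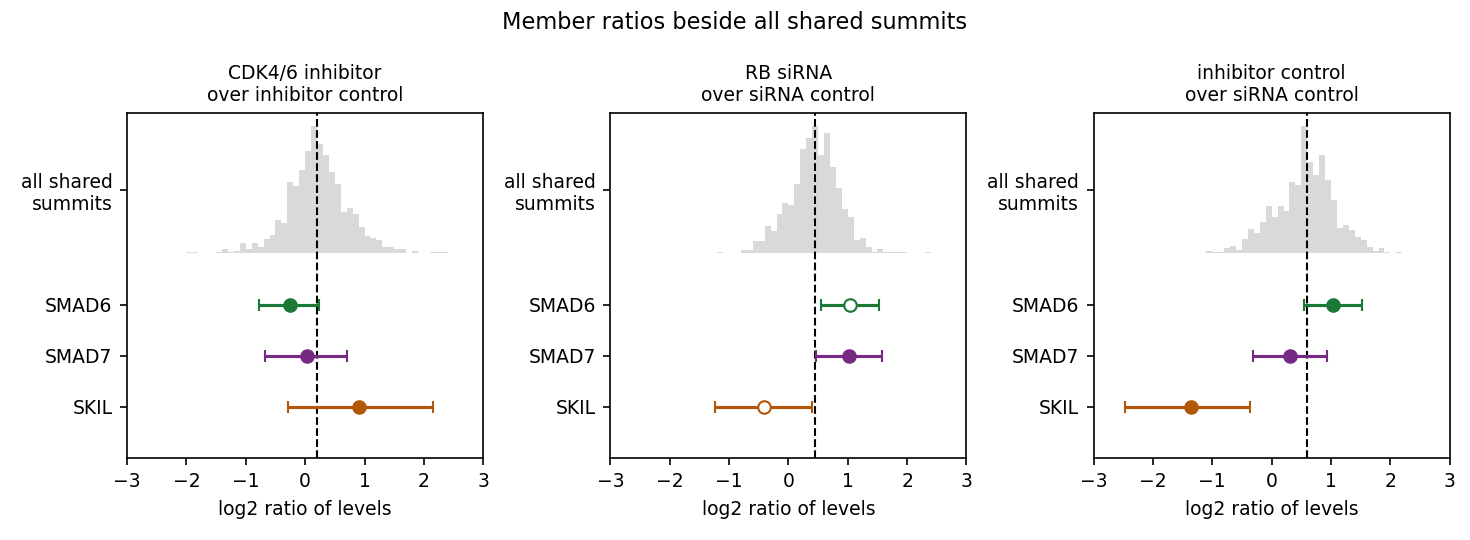
Log2 ratio of levels (x axis) in the inhibitor contrast, the RB siRNA contrast and between controls. Points with exact 95% intervals are SMAD6, SMAD7 and SKIL (filled where summits match within 250 bp, open where they do not), the grey histogram shows all shared summits of at least 5 FPM scaled to its peak, and the dashed line is their median. SMAD7 lies right of the median after RB siRNA (1.02 against 0.45), and SKIL, selected on its levels in the controls, is drawn at -1.36 between them.

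Ratios of these genes within a library do not depend on how libraries are scaled. At their listed summits, fragments at SMAD6 over those at SKIL came to 3.56 under the inhibitor (2.02 to 6.65) and 8.0 in its control (4.26 to 16.6). They came to 4.14 after RB siRNA (2.55 to 7.03) and 1.52 in the siRNA control (1.01 to 2.33). These ratios use levels on which SMAD6 and SKIL were selected and are a description. SMAD7 over SKIL, which shares the SKIL levels, was 2.12 under the inhibitor (1.14 to 4.12), 3.91 in its control (1.98 to 8.41), 3.29 after RB siRNA (1.99 to 5.64) and 1.23 in the siRNA control (0.79 to 1.91). Between the inhibitory SMAD genes, SMAD6 over SMAD7 was 1.68 under the inhibitor (1.08 to 2.64), 2.05 in its control (1.41 to 3.02), 1.26 after RB siRNA (0.909 to 1.76) and 1.24 in the siRNA control (0.841 to 1.85), and these 4 intervals overlapped. In every library the order was SMAD6, SMAD7, SKIL. Counting error did not separate SMAD6 and SMAD7 in the RB siRNA and siRNA control libraries, or SMAD7 and SKIL in the siRNA control.

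Of the 4 genes, SMAD7 had a summit matched in all 4 libraries. Among 311 other such gene-end summits with at least 5 FPM on average, the closest in pattern was that of DIPK2A, with 6.28 FPM under the inhibitor, 6.1 in its control, 7.84 after RB siRNA and 4.89 in the siRNA control. ECI2, which encodes an enzyme of fatty acid oxidation, followed with 13.1, 15, 18.2 and 11.2 FPM in the same libraries. The third was the shared end of EEFSEC and RUVBL1 with 17.8, 17.9, 21.9 and 12.1. The distances of centred log2 levels over the 4 libraries were 0.30, 0.32 and 0.34. The median over the 311 summits was 0.95. The closest summits lie below it by construction, so nothing is read from the difference. SMAD7 counted as a gene-end summit here only through RB siRNA, the library where its level was highest. Counting error was not taken into account in these distances.

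Other genes of the pathway mostly lacked a listed gene-end summit, and none was listed in all 4 libraries. Of 62 genes, 6 had one under the inhibitor (9.68%, against 7.73% of all genes) and 11 in its control (17.7% against 16.8%). After RB siRNA there were 6 (9.68% against 6.63%) and in the siRNA control 15 (24.2% against 17.3%). In all, 22 genes had a summit in some library. No share of all genes is given for a summit in some library or in all 4, so neither count is read as a result. Where such a gene lacked one in another library, which occurred 50 times, the interval there held a summit at least as high elsewhere in 42 cases. Absence from a list was thus mostly not a measurable difference. At KLF10 in the inhibitor control and at WWP1 after RB siRNA, no interval covered the position of the gene's highest listed summit.

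Of 11 ligand genes, TGFB2 and TGFB3 had summits of 1.15 to 2.06 FPM, each of at most 5 fragments, and that of TGFB2 lay at an end shared with its antisense gene. Of 11 receptor genes, the type I BMP receptor gene ACVR1 had 2.09 FPM under the inhibitor and 1.22 in its control, beside 4.31 in the siRNA control, and the activin receptor gene ACVR1B 3.66 in the inhibitor control. The third was ACVR2B, with 1.15 FPM in the siRNA control. Of the 6 genes for signal-carrying SMADs, SMAD2 had 4.95 FPM after RB siRNA and 7.47 in the siRNA control. SMAD4, the partner common to both branches, had 3.67 FPM under the inhibitor. SMAD5 and SMAD9 each had 2.01 FPM in the siRNA control. The median over all summits was 4.19 FPM (inhibitor), 1.63 (inhibitor control), 4.54 (RB siRNA) and 1.44 (siRNA control).

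The highest summits of the 62 genes lay at the ligase gene SMURF1 and the target genes JUNB and KLF10, not across their roles. A summit in some library was listed for 5 of 13 inhibitor and ubiquitin ligase genes and for 5 of 12 target genes. Among these, BAMBI had 1.72 FPM (siRNA control), NOG at most 1.63 (inhibitor control) and SNAI2 2.03 (inhibitor control). SMURF1, the ligase that SMAD6 and SMAD7 bring to receptors, had 18.6 FPM after RB siRNA and 12.6 in the siRNA control, with a log2 ratio of 0.55 (-0.08 to 1.19). Under the inhibitor the interval over its end held 35.6 FPM at another summit 361.7 kb away, and in the inhibitor control SMURF1 had 26.8 FPM. JUNB, an AP-1 subunit gene induced by TGF-β, had 30.5 FPM after RB siRNA and 20.1 in the siRNA control (log2 ratio 0.60, 0.11 to 1.09), at a position shared with HOOK2. Both ratios lay within counting error of the median of 0.45. ID2, a BMP target, had 11.0 FPM under the inhibitor and 13.0 in its control (-0.24, -1.11 to 0.60), and 9.08 after RB siRNA. ID1, another BMP target, was listed in both controls, with 8.54 FPM in that of the inhibitor and 5.75 in that of the siRNA. KLF10, a TGF-β-inducible gene, had 21.8 FPM in the siRNA control. Among corepressor partners, the deacetylase gene HDAC1 had 10.5 FPM under the inhibitor and 9.35 in its control (0.16, -0.78 to 1.09). HDAC2 had 3.25 FPM in the inhibitor control, 1.24 after RB siRNA and 2.87 in the siRNA control, and CREBBP, a coactivator gene, was listed under the inhibitor with 4.71 FPM and in the siRNA control with 3.74. The summits of ACVR1, SMAD4, ID1, ID2, KLF10 and SNAI2 also lay at an end of another annotated gene. Within each contrast, and between the controls, 2 of the 62 genes had a shared summit of at least 5 FPM. None lay beyond the median shift. Over all shared summits of these comparisons, 5.74% to 11.9% lay beyond it on each side, so this is not read as a result. The ligase gene SMURF2 was listed in the inhibitor control only (3.66 FPM). WWP1 was listed in both controls, with 1.63 FPM in that of the inhibitor and 7.18 in that of the siRNA. Under the inhibitor, the intervals over both positions held higher summits elsewhere (7.33 FPM each). So did that over SMURF2 after RB siRNA (36.7 FPM), and no difference is read from these absences.

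**Figure D5:**
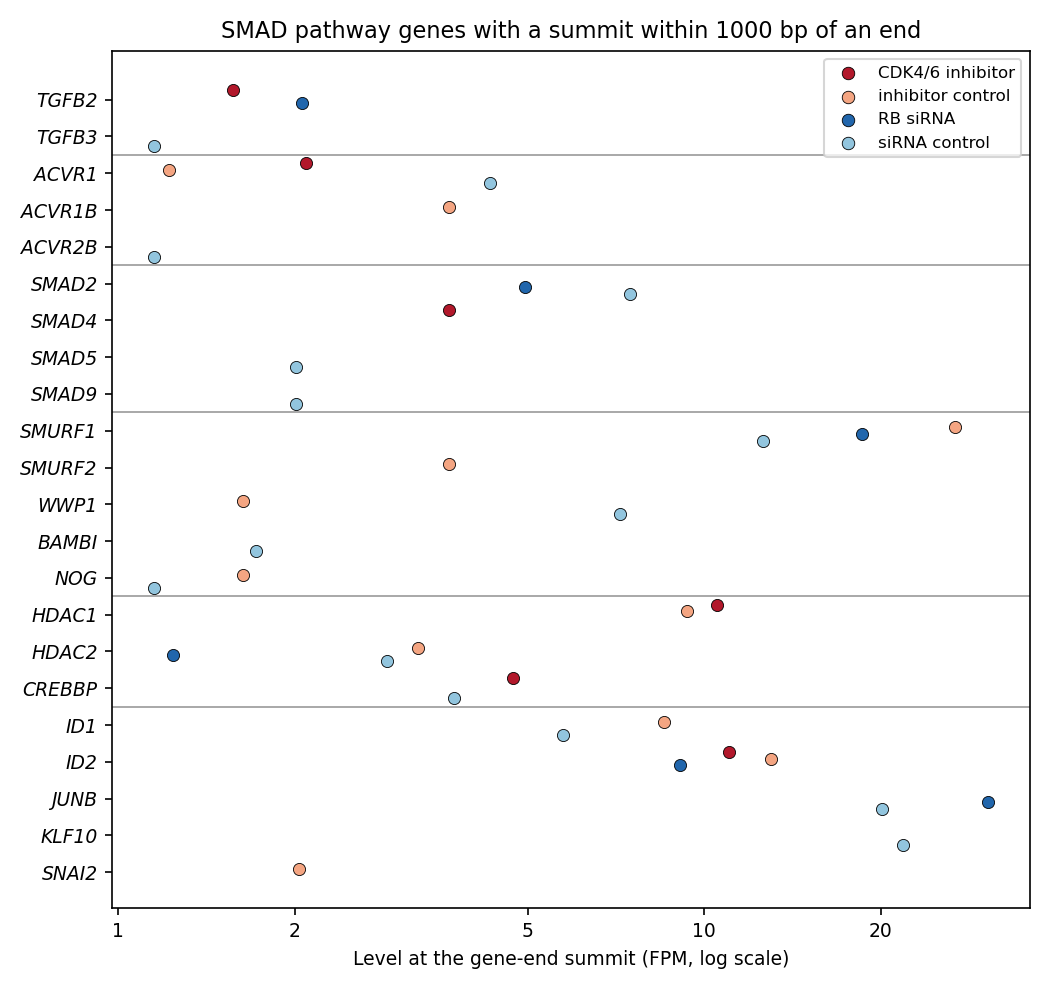
Level at the gene-end summit (x axis, FPM, log scale) of the 22 pathway genes that had one, by role from ligands (top) to targets (bottom), with libraries by colour. JUNB reaches 30.5 FPM after RB siRNA and SMURF1 26.8 FPM in the inhibitor control, and ligand summits stay at or below 2.06 FPM.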

How the data were processed

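The tools named for the reads, per the submitters' processing notes, were bcl2fastq 2.17, Trimmomatic 0.33 and Bowtie2 (its version listed as 2), with MACS2 2.1.0 for the intervals and hg38 as the build. Per the labels' protocols, chromatin was fixed and sonicated and input was prepared as well. Each deposited list holds 1 library, with no header. The score, as deposited, equals 10 times the −log10 p without its decimals. The deposited fold is the ratio of treatment to background at the summit, with its p-value and q-value deposited as −log10. All are the authors' values.

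For each summit, the background level and the treatment fragments were solved from its fold and p, under a Poisson upper tail and a pseudocount of 1. Every list gave fragment numbers that were whole (tolerance 0.05) at 100.0% of its summits, also at the genome-wide background, where the solution has no choice. Library totals assume a background window of 10000 bp and an effective genome of 2.7 Gb. The genome size cancels in ratios of libraries. The procedure was run on data simulated under the same model, which checks the solving step but cannot test the assumptions of the model. Python 3.11.15, numpy 2.4.6, scipy 1.17.1, pandas 2.3.3 and matplotlib 3.10.9 were used.

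Contigs other than chromosomes 1 to 22, X and Y were left out. Gene ends and promoter sequences came from RefSeq (GRCh38.p14). The promoter table matched SMAD6, SMAD7 and SKIL, and SKI was not in it. Between 2 libraries, summits were matched as mutual nearest neighbours at most 250 bp apart, and shared summits needed a geometric mean of at least 5 FPM. Levels carry exact Poisson intervals and ratios exact conditional (Clopper-Pearson) intervals at 95%, for counting error only, since PCR copies are not independent molecules. Each group is 1 library, so groups were compared without a p-value. The 4 genes, the 62 pathway genes, the motifs and the rules were chosen with earlier results of these data known. The rule for named genes takes the 4 genes always, up to 15 pathway genes by level, genes at the summits of intervals over the 4 genes, and the 3 summits closest in pattern. TGFB3, ACVR2B, SMAD5, SMAD9, SNAI2, BAMBI and NOG were added to complete their roles. Alternatives covered the window, a q or level minimum, matching distance, scaling and the authors' fold alone.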

Additional observations from a re-analysis of the deposited data

How the results depend on the processing

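With a window of 500 bp, genes of the 4 with a gene-end summit numbered 0 under the inhibitor, 1 in its control, 2 after RB siRNA and 1 in the siRNA control, against 6.64%, 14.3%, 5.86% and 15% of all genes. At an authors' −log10 q of at least 2 the count was 0 in every library, for the 4 genes and the 62 pathway genes alike, against 0.0499% (inhibitor), 0.434% (inhibitor control), 0.025% (RB siRNA) and 0.18% (siRNA control) of all genes. At 5 FPM or more, 2, 4, 3 and 6 pathway genes had one in these libraries, against 5.43%, 8.79%, 4.42% and 6.98% of all genes. Matching within 1000 bp gave 3 of the 4 genes a partner in the RB siRNA contrast. Scaling to summits of all 4 libraries gave SMAD6 22.5 FPM under the inhibitor. In the siRNA control it gave 24.6 FPM at SMAD6, 19.7 at SMAD7 and 16.1 at SKIL, so at SMAD6 and SMAD7 this library was no longer lowest.

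The authors' fold alone, to which 1 fragment adds 0.005 (inhibitor), 0.014 (inhibitor control), 0.0032 (RB siRNA) or 0.01 (siRNA control), was in that order 1.29, 2.23, 1.27 and 1.63 at SMAD6, 1.17, 1.6, 1.22 and 1.51 at SMAD7, and 1.08, 1.15, 1.07 and 1.41 at SKIL, and was 1.33 at SKI in the inhibitor control. The log2 ratio of folds at SMAD7 for RB siRNA over its control was -0.31, of opposite sign to the 1.02 of levels, which follows from the unequal step per fragment. Log2 ratios of folds were -0.80 at SMAD6 for the inhibitor over its control, and 0.45 at SMAD6 and -0.30 at SKIL between controls. For the inhibitor over its control they were -0.09 at SKIL and -0.45 at SMAD7, also of opposite sign to the 0.91 and 0.03 of levels. Relative to the median, SMAD6 between controls was 0.44. With the median over summits of at least 10 FPM, SMAD7 after RB siRNA (1.02) no longer lay beyond it (0.49). With at least 2 FPM, SMAD6 between controls (1.03) lay above it (0.50). Of 105 alternatives to 31 results, 65 stayed within the limits of the main value. No paired analysis was possible because each group holds 1 library. Depth limits SKIL most, with 11 to 40 fragments per library.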

Other observations

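The summits that stood in place of one at SKI were listed in every library. The summit inside PRKCZ, which encodes an atypical protein kinase C of cell polarity, had 60.2 FPM under the inhibitor and 52.1 in its control. It had 38.4 FPM after RB siRNA and 27.3 in the siRNA control, and all positions lay within 37 bp of that under the inhibitor. The summit nearest to TNFRSF14, a receptor gene of the tumour necrosis factor family, had 31.4 FPM under the inhibitor and 39.0 in its control. It had 23.1 FPM after RB siRNA and 16.7 in the siRNA control, where its position was 211 bp from that after RB siRNA. Both sites thus exceeded the SKI summit of 9.76 FPM in all 4 libraries.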
